A study of Mus musculus with 7 samples.

Results

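The genes described are 38 interferon-stimulated and MHC class I genes, of 37074 genes named on a mouse Agilent array, in hearts that lost the chromatin remodelling ATPases Brg1 and Brm. The list was chosen by gene symbol, with earlier results of these data known. It holds 24 genes that respond mainly to type I interferon. A further 7 are guanylate-binding proteins (GBPs), immunity-related GTPases (IRGs) and Irf1, and 7 are genes of antigen processing and presentation. Each gene was read from its probe with the highest mean signal over the arrays, and 37 of the 38 genes passed the filter on dim probes. In the knockout hearts 9 of these 37 genes were higher and 3 were lower, where 16.4% of all genes tested were higher and 25.8% lower. The type I-like genes had 8 higher and 0 lower, while the GBP, IRG and antigen presentation genes had 1 higher and 3 lower. Among the 8 is Mx1, which was not well above background in wild type.

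Heart RNA of adult female mice was hybridised to one-colour arrays, 1 sample per array. The 3 Wild Type arrays are labelled NTg with tamoxifen. The 4 Mutant arrays, called knockout here, are labelled Tg with tamoxifen, so both groups received the drug. In the knockout mice an MHC-driven, tamoxifen-activated Cre recombinase (Cre-ERT), a driver meant for heart muscle cells, removed Brg1 in animals already null for Brm. Nothing in the labels says whether the Wild Type mice carried Brm or the Cre. The design text names more samples than these 7, and those were not analysed here. Nothing in the labels says whether the samples are separate animals, so p-values measure the spread between these arrays.

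Interferons are secreted proteins that signal through paired receptors, JAK kinases and STAT transcription factors. Type I interferons act mainly through a complex that holds Stat2 and Irf9 and binds a DNA element called the interferon-stimulated response element (ISRE). Interferon gamma acts through the gamma-activated site (GAS) and through Irf1, and is the stronger inducer of most GBPs, IRGs and antigen presentation genes. In the heart these genes are best known from viral myocarditis and from the response to injury. In RNA from whole tissue, fewer cells of a type and less RNA per cell cannot be told apart.

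Levels are given as scaled signal, the background-corrected spot intensity as a percentage of the 75th percentile of its own array. They compare arrays for 1 gene, not different genes, because probes differ in brightness. Fold changes are differences of mean log2 scaled signal, knockout minus wild type. A gene was called when its Benjamini-Hochberg adjusted p from limma, over 22837 genes tested, was under 0.05. By that rule 42.2% of all genes tested were called, 16.4% higher and 25.8% lower, and the median log2 fold change of all genes was -0.12. The number of arrays limits the precision. Values run in the order Wild Type_181, Wild Type_183 and Wild Type_189, then Mutant_175, Mutant_182, Mutant_187 and Mutant_188.

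Smarca4, the gene of Brg1, was the check of the labels. Its wild type scaled signals were 3470, 3280 and 3420, and its knockout signals 587, 1030, 1490 and 825. It was lower in every knockout array (log2 fold change -1.87, SE 0.29, adjusted p 0.0021 by limma), with signal remaining in each. Smarca2, the gene of Brm, was not called (0.08, SE 0.11), and no source says whether its probe lies in the part that the Brm allele lacks, so that probe checks nothing. The labels give the cell type as cardiomyocytes, but the RNA was extracted with a kit for tissue. The summed scaled signal of 8 cardiomyocyte markers was 462000 to 503000 in wild type and 226000 to 301000 in knockout, and 7 of the 8 were called lower. Markers of other cells were measured too, with sums over 8 fibroblast markers of 29900 to 33000 in wild type and 56900 to 78400 in knockout, 7 of the 8 called higher.

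Mutant_175 stood apart from the other knockout arrays in these genes. It had the lowest signal of the 4 knockout arrays in 31 of 37 members, 83.8%, against 30.8% of all 22802 genes with a named probe and a value on every array. The median SD of log2 signal among knockout arrays was 0.52 over the members and 0.26 over all genes, and without Mutant_175 it was 0.21 and 0.20. Among wild type arrays it was 0.12 for both. Values that it moved by over 1.5 times, turned in sign or took across the threshold are therefore also given without it. Mutant_175 was singled out by these same values, so calls made without it are descriptions and not support.

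Mx1 was well above background in knockout arrays only. It encodes a GTPase that blocks virus replication. Its scaled signal was 0.645, 0.582 and 0.552 in wild type and 6.67, 18.4, 18.2 and 8.04 in knockout. All 4 knockout arrays lay above all wild type arrays. On the 3 wild type arrays this probe was not well above background, and it passed the filter only through the knockout arrays. Mx1 was therefore at least 4.27-fold higher, a bound that sets the knockout mean against the dimmest signal each wild type array could measure. The fitted log2 fold change of 4.29 (SE 0.39, adjusted p 0.0002 by limma) compares a measured level with background, so its call, 1 of the 8 higher, is not read as support. A second Mx1 probe was well above background on 0 wild type and 2 knockout arrays.

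The Ifit genes, whose proteins bind viral RNA and hold back its translation, separated the groups without overlap. Ifit2 had scaled signals of 59, 50.4 and 47.8 in wild type and 103, 98, 116 and 105 in knockout (log2 fold change 1.01, SE 0.12, adjusted p 0.0007 by limma). The knockout arrays lay close together, Mutant_175 among them. Ifit1 had 49.7, 38.2 and 40.2 in wild type and 72.8, 90.3, 66.1 and 66.9 in knockout (log2 fold change 0.79, SE 0.16, adjusted p 0.0063). Here too every knockout array was above every wild type array. Ifit3 had 179, 117 and 120 in wild type and 182.9, 239, 258 and 206 in knockout (log2 fold change 0.69, SE 0.20, adjusted p 0.025). Wild Type_181 came close to Mutant_175 in Ifit3. Ifit3 has a near-identical copy, Ifit3b, so its signal cannot be assigned to one of them with certainty.

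Mx2, a second Mx GTPase, had scaled signals of 23.5, 28.7 and 28.4 in wild type and 41, 33.6, 39.2 and 34.4 in knockout (log2 fold change 0.47, SE 0.13, adjusted p 0.025 by limma). Mutant_175 was its highest array. Oasl1, a relative of the oligoadenylate synthetases that restrains Irf7 translation, had 105, 72.1 and 79.9 in wild type and 139, 178, 194 and 119 in knockout. Its log2 fold change was 0.87 (SE 0.21, adjusted p 0.014), and a second probe gave 1.01. Neither gene had overlapping groups.

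In Isg15 and Zbp1 the knockout arrays divided. Isg15 encodes a ubiquitin-like protein that is attached to newly made proteins during the interferon response. Its scaled signal was 373, 298 and 311 in wild type and 395, 892, 1160 and 655 in knockout (log2 fold change 1.14, SE 0.34, adjusted p 0.031 by limma). Zbp1 is a sensor of Z-form nucleic acid that can start necroptosis. Its scaled signal was 25.8, 20.7 and 19.6 in wild type and 26.4, 81.2, 76.9 and 57.8 in knockout (log2 fold change 1.34, SE 0.38, adjusted p 0.025). In both genes Mutant_175 sat just above the highest wild type array, and the other 3 knockout arrays were far above it.

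**Figure D1:**
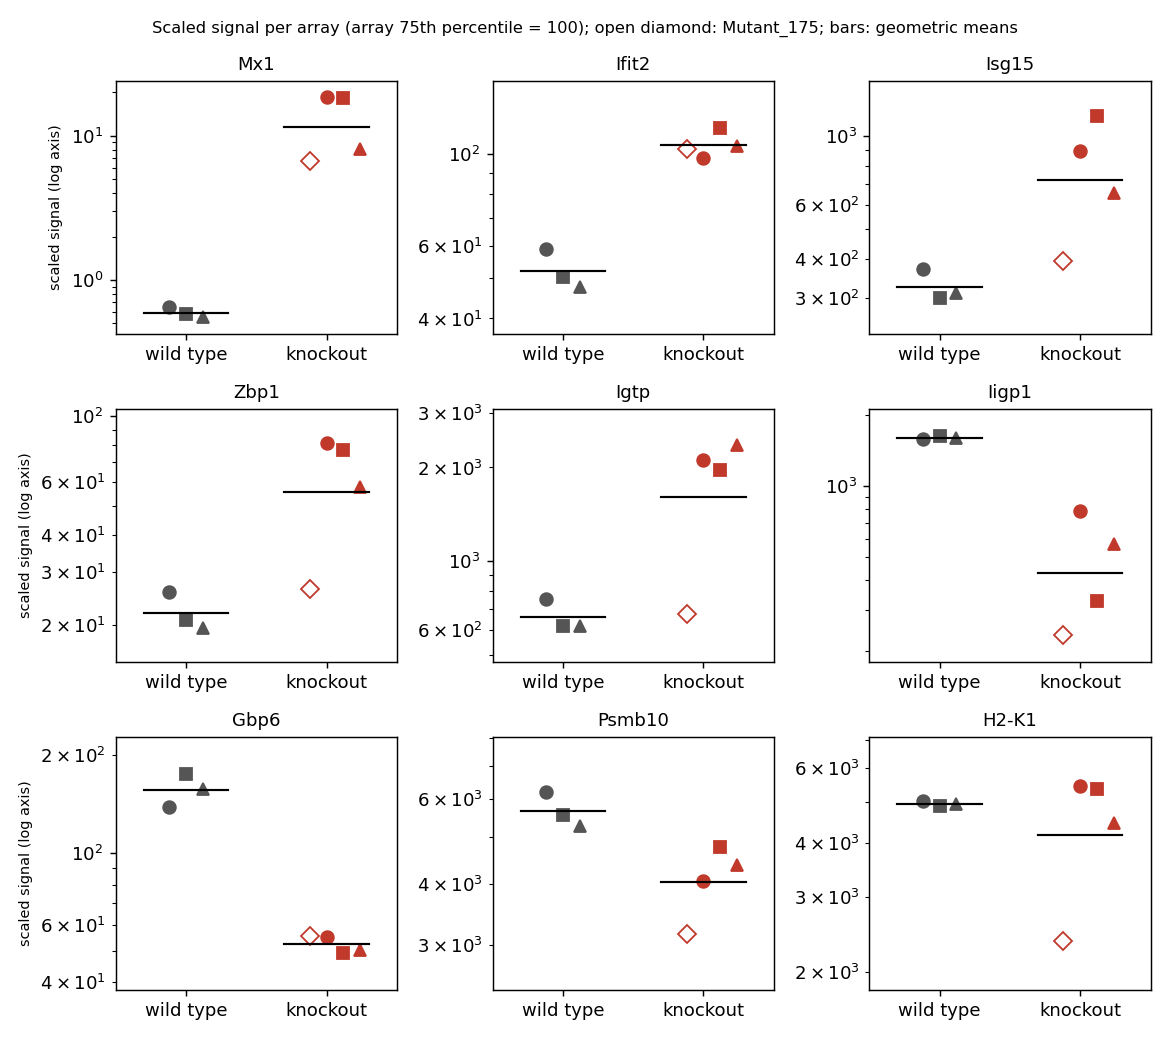
Scaled signal of 9 genes on each array, on log axes, with wild type in grey and knockout in red, Mutant_175 as an open diamond and horizontal bars for the geometric means. Mutant_175 groups with the other knockout arrays in Mx1, Ifit2 and Gbp6, and with or below the wild type arrays in Igtp and H2-K1, where it was 674 and 2360.

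The other 15 tested type I-like genes were not called, but several had 3 high knockout arrays and Mutant_175 at the wild type level. Irf7 is the transcription factor that amplifies type I interferon production. Its scaled signal was 1010, 924 and 1000 in wild type and 893, 1660, 2300 and 1570 in knockout (log2 fold change 0.64, SE 0.29, adjusted p 0.11 by limma). Irf9, the DNA-binding partner of Stat2, had 393, 394 and 403 in wild type and 390, 562, 754 and 640 in knockout (0.52, SE 0.22, adjusted p 0.088). Stat2 had 219, 228 and 232 in wild type and 177, 333, 401 and 341 in knockout (0.40, SE 0.27, adjusted p 0.26). In all 3 genes Mutant_175 was below the lowest wild type array and the others above the highest. Without it all 3 were called, at 0.90, 0.71 and 0.66. Leaving out the lowest knockout array raises these values in any case, so the calls are not read as support.

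Oasl2, a further oligoadenylate synthetase relative, had 87.6, 67.6 and 89.2 in wild type and 94.7, 184, 377 and 159 in knockout (log2 fold change 1.15, SE 0.42, adjusted p 0.059 by limma). Bst2, which tethers budding virus to the cell surface, had 262, 422 and 300 in wild type and 324, 633, 577 and 584 in knockout (0.67, SE 0.27, adjusted p 0.084). The groups did not overlap in Oasl2 but did in Bst2, where Mutant_175 lay inside the wild type range. Ddx58 (RIG-I) and Ifih1 (MDA5), sensors of viral RNA in the cytoplasm, had log2 fold changes of 0.50 (adjusted p 0.05, just above the threshold) and 0.29 (adjusted p 0.09), with no overlap between groups in either. Without Mutant_175 these 4 genes were called, Oasl2 at 1.46, Bst2 at 0.90, Ddx58 at 0.63 and Ifih1 at 0.34.

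The oligoadenylate synthetases, which make the second messenger that activates RNase L, were spread widely among the knockout arrays. Oas1a had 260, 218 and 218 in wild type and 110, 369, 429 and 243 in knockout (log2 fold change 0.14, SE 0.44, adjusted p 0.82 by limma). Oas2 had 208, 190 and 242 in wild type and 103, 236, 232 and 181.8 in knockout (-0.25, SE 0.30, adjusted p 0.53). In both, Mutant_175 was the lowest of all 7 arrays, and without it the values were 0.54 and 0.02, neither called. Oas1a belongs to a family of near-identical genes, and its signal is uncertain for that reason. Oas3 was well above background on 1 array, a knockout, and was not tested.

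The remaining type I-like genes had small differences. Rsad2 (viperin), Usp18, which removes Isg15 from proteins, Ifi44 and Rtp4 had log2 fold changes of 0.31, 0.30, 0.32 and 0.25, and Xaf1 of -0.10. Without Mutant_175 these were 0.14, 0.46, 0.62, 0.35 and 0.03, and only Rtp4 was called. Ifi35 was lower on every knockout array, with 1860, 1680 and 1640 in wild type and 1140, 1360, 1470 and 1420 in knockout, and missed the threshold (-0.36, SE 0.13, adjusted p 0.054 by limma). It was the only type I-like gene with groups that did not overlap and a lower knockout.

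Over the 23 tested type I-like genes the log2 fold changes ran from -0.36 to 4.29, that of Mx1, with a median of 0.50, and 20 were positive. The 8 called higher, which include Mx1, were 34.8% of the class, against the background of 16.4%. The genes were chosen with earlier results of these data known, so these shares are a description and not a test. Among probes well above background on all arrays, which leaves out Mx1, 9 of 22 were called higher and 1 lower, with a median of 0.48. Over all genes 3461 of 19825 were then called higher and 5354 lower. With spike-in scaling 18 were called higher and the median was 1.07, where 8600 of all 22837 genes were called higher and their median was 0.45. With array weights 16 were called higher and 1 lower, where 4789 of all genes were called higher and 7252 lower. Groups that did not overlap were found in 51.3% of all genes tested, 19.6% with the knockout arrays higher and 31.7% with them lower. Among the 23 type I-like genes the knockout arrays lay wholly above the wild type arrays in 11, Mx1 among them, and wholly below in 1. The number of all members called higher moved with single arrays: 17 without Mutant_175, 5 without Wild Type_181, 3 without Wild Type_183, 3 without Wild Type_189, and 5 without Mutant_182 or without Mutant_187, against 9 with all arrays. Over all genes the number called higher was 4514 without Mutant_175 and 2634 to 3611 without any other single array, against 3734 with all arrays. Without Mutant_175, 16 type I-like genes were called higher and 0 lower, and the added ones were Bst2, Ddx58, Ifih1, Irf7, Irf9, Oasl2, Rtp4 and Stat2.

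Single arrays also decided some of the calls named above. Isg15 and Zbp1 lost theirs without any one array other than Mutant_175, with adjusted p of 0.05 to 0.097 and of 0.05 to 0.082 by limma, where 0.05 lay just above the threshold. Zbp1 also lost it when the mean over its probes was used (adjusted p 0.16). Mx2 lost its call without Wild Type_181 (adjusted p 0.1), Wild Type_183 (0.054) or Wild Type_189 (0.06). Oasl1 lost it without Wild Type_183 (0.06) or Wild Type_189 (0.054). Ifit3 lost it without Wild Type_183 (0.098), Wild Type_189 (0.096), Mutant_182 (0.063) or Mutant_187 (0.053). The calls of Ifit1 and Ifit2 held under every alternative run.

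**Figure D2:**
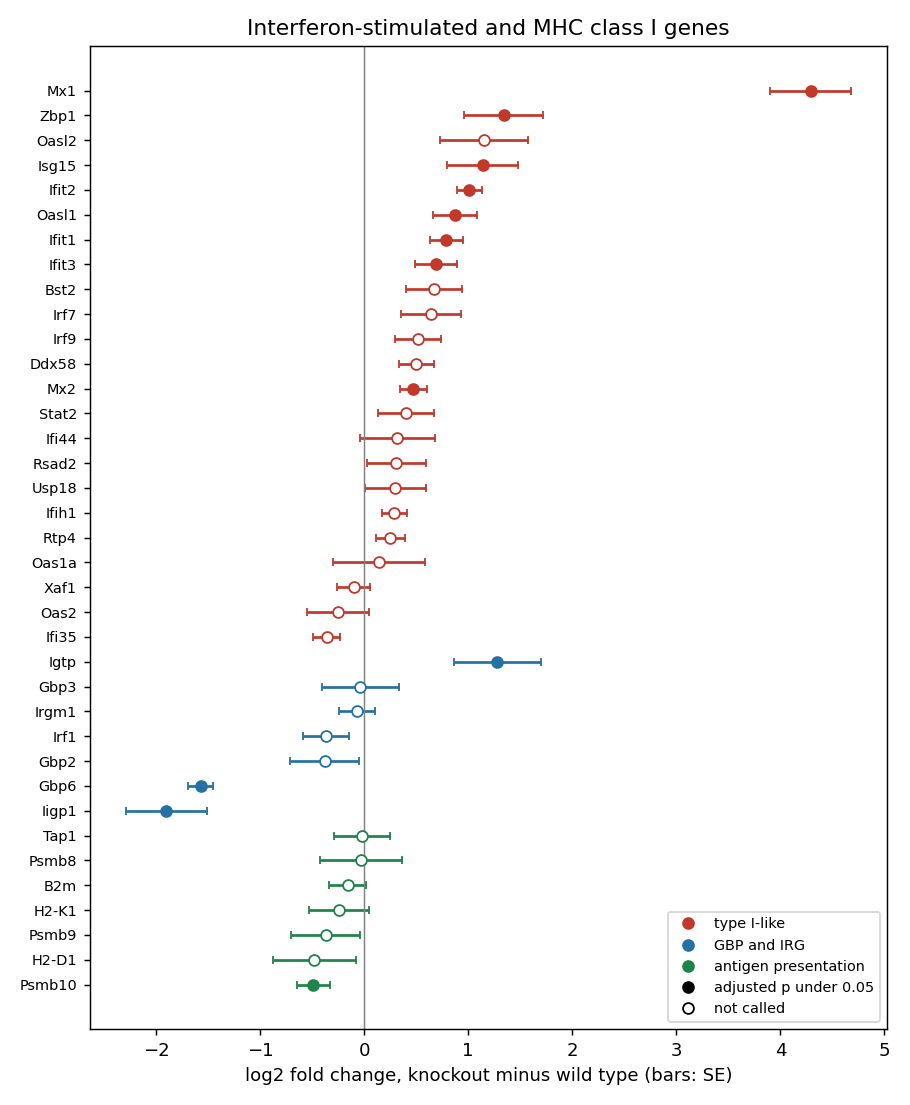
Log2 fold change, knockout minus wild type, of the 37 tested genes with standard errors as bars, coloured by class and filled where the adjusted p was under 0.05. The type I-like genes lie mostly right of 0 and the GBP, IRG and antigen presentation genes, apart from Igtp at 1.28, lie at or left of it.

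The GBPs and IRGs are GTPases that attack the membranes of vacuoles around intracellular pathogens. Their group, which also holds Irf1, had 2 genes lower and 1 higher. Gbp6 had scaled signals of 138, 174.97 and 158 in wild type and 55.6, 55.2, 49.4 and 50.2 in knockout. The knockout arrays lay close together and all below the wild type (log2 fold change -1.57, SE 0.12, adjusted p 0.00011 by limma). Iigp1 (Irga6) had 1580, 1630 and 1600 in wild type and 235, 782, 326 and 570 in knockout. Every knockout array was lower, Mutant_175 the lowest (-1.90, SE 0.39, adjusted p 0.0069). A second, dimmer Iigp1 probe gave -0.80 (adjusted p 0.13), so the probes differ in size and in call.

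Igtp (Irgm3), a regulatory IRG, went the other way. Its scaled signal was 755, 621 and 618 in wild type and 674, 2110, 1960 and 2370 in knockout (log2 fold change 1.28, SE 0.42, adjusted p 0.044 by limma). Mutant_175 lay inside the wild type range and the other 3 knockout arrays were far above it. Without Mutant_175 the log2 fold change was 1.69 (adjusted p 0.00021). Without any other single array the call was lost, with adjusted p from 0.082 to 0.12.

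The other genes of that group were not called. Gbp2 had 267, 283 and 283 in wild type and 112, 319, 238 and 245 in knockout (log2 fold change -0.38, SE 0.33). Gbp3 had 182.4, 174 and 159 in wild type and 79.1, 198, 247 and 198 in knockout (-0.04, SE 0.37). Irf1, the interferon gamma-induced transcription factor, had 717, 784 and 825 in wild type and 395, 643, 742 and 693 in knockout (-0.37, SE 0.22). Mutant_175 was the lowest array in these genes, and in Gbp2 and Gbp3 the wild type arrays lay within the range of the knockout arrays. Irgm1 had 297, 299 and 301 in wild type and 244, 373, 244 and 298 in knockout (-0.07, SE 0.17). Without Mutant_175 the log2 fold changes were -0.07 for Gbp2, 0.31 for Gbp3, -0.16 for Irf1 and 0.01 for Irgm1, none of them called. GBP genes are similar in sequence, and cross-hybridisation among them was not tested.

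The antigen presentation genes had 1 call. Psmb10, a catalytic subunit of the immunoproteasome that cuts peptides for MHC class I, had 6190, 5570 and 5270 in wild type and 3150, 4070, 4770 and 4380 in knockout. Every knockout array was lower (log2 fold change -0.49, SE 0.16, adjusted p 0.046 by limma). The call was lost without Wild Type_181 (adjusted p 0.14), Wild Type_183 (0.11), Wild Type_189 (0.086), Mutant_182 (0.088) or Mutant_188 (0.065) and with quantile normalization (0.23), and with spike-in scaling the value was 0.08. The constitutive subunits Psmb5, Psmb6 and Psmb7, which the immunoproteasome subunits replace, were not called, at -0.09, -0.31 and -0.16.

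Psmb8 and Psmb9, the other inducible subunits, and Tap1, the peptide transporter, repeated the pattern of Mutant_175. Psmb8 had 268, 308 and 295 in wild type and 129, 361, 438 and 320 in knockout (log2 fold change -0.03, SE 0.39). Psmb9 had 316, 294 and 304 in wild type and 122, 323, 322 and 240 in knockout (-0.37, SE 0.33). Tap1 had 110, 121 and 115 in wild type and 68.6, 153, 140 and 113 in knockout (-0.02, SE 0.27). Mutant_175 was far below the wild type arrays in each, and the other knockout arrays lay around or above them. Without it the log2 fold changes were 0.35 for Psmb8, -0.06 for Psmb9 and 0.22 for Tap1, none of them called.

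B2m, the light chain of MHC class I, had 6100, 6360 and 6370 in wild type and 4140, 6910, 6000 and 5840 in knockout (log2 fold change -0.16, SE 0.18, adjusted p 0.51 by limma). The heavy chain gene H2-K1 had 5020, 4900 and 4940 in wild type and 2360, 5460, 5370 and 4470 in knockout (-0.24, SE 0.29, adjusted p 0.53). In both, Mutant_175 was the lowest of all arrays. H2-D1 had 1330, 1380 and 742 in wild type and 482, 886, 1450 and 646 in knockout (-0.48, SE 0.40), and was uneven within both groups. Without Mutant_175 the log2 fold changes were -0.01 for B2m, 0.03 for H2-K1 and -0.23 for H2-D1, none of them called. Class I heavy chain genes are near copies of each other, so their signals are uncertain.

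Over the 14 GBP, IRG and antigen presentation genes the median log2 fold change was -0.30 and 13 were negative, but with spike-in scaling the median was 0.27. Called higher were 7.14% and lower 21.4%, against 16.4% and 25.8% of all genes. Without Mutant_175, 1 was higher and 3 were lower, and the median was -0.03.

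Medians on each array show how the classes differed by array. For each gene the deviation of log2 signal from its wild type mean was taken. The median over the type I-like genes was 0.12 in Mutant_175, 0.67 in Mutant_182, 0.89 in Mutant_187 and 0.50 in Mutant_188. Over the GBP and IRG genes it was -1.12, 0.20, -0.22 and -0.16, and over the antigen presentation genes -1.07, 0.14, 0.12 and -0.15. Wild type arrays lay between -0.08 and 0.11 for the type I-like genes and between -0.02 and 0.02 for the others. In every knockout array the type I-like median was above both other medians, by more than 1 log2 unit in Mutant_175. These medians carry no test, since the genes were chosen together.

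**Figure D3:**
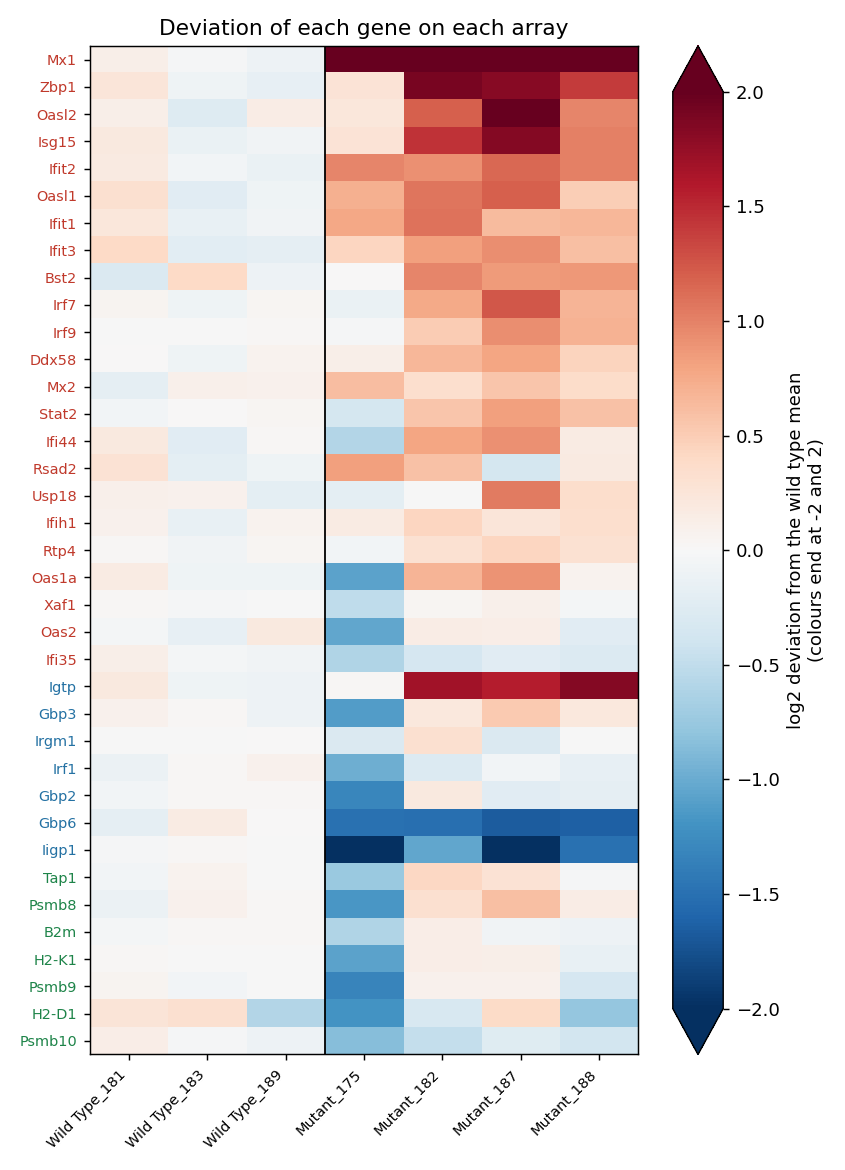
Deviation of log2 signal from the wild type mean for 37 genes (rows, name coloured by class) on 7 arrays (columns), with colours that end at -2 and 2. The column of Mutant_175 is blue over most GBP, IRG and antigen presentation genes, where 1 of 14 lay above the wild type mean, and mixed over the type I-like genes, where 13 of 23 did.

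The start sites of these genes are where ISRE and GAS sequences are usually found, so the 250 bases before each start were searched in RefSeq windows of assembly GRCm38.p6, which held 30 of the 38 genes. The ISRE was searched as GAAA, any 2 bases and GAAA, or on the other strand TTTC, any 2 bases and TTTC, and the GAS as TTCNNNGAA, which reads the same on both strands, and matches may overlap. An ISRE match was found in 43.3% of the 30 genes and in 3.46% of all 27025 genes with a window. It was found in 8 of 18 type I-like genes, 4 of 5 GBP and IRG genes and 1 of 7 antigen presentation genes. A GAS match was found in 20% of the 30 genes and in 8.13% of all. By outcome, the ISRE match was present in 4 of 6 genes called higher, 0 of 1 called lower and 8 of 22 not called.

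The 160 bases up to the start of 8 of these genes, all with an ISRE match, are printed as examples. The genes were picked after their values were seen. Genes called higher without an ISRE match, such as Ifit2 and Oasl1, are not printed, and any link of match and outcome was not tested. Ifit1 (chr19:34640729-34640888, + strand), Ifit3 (chr19:34583369-34583528, +), Isg15 (chr4:156200819-156200978, -) and Igtp (chr11:58199396-58199555, +) were called higher. Gbp2 (chr3:142620503-142620662, +), Gbp3 (chr3:142559884-142560043, +), Irgm1 (chr11:48871421-48871580, -) and B2m (chr2:122147527-122147686, +) were not called. For Gbp3 the RefSeq table holds 2 windows, and that with more matches is shown. Capitals mark ISRE and GAS matches, and each sequence runs 5′ to 3′ toward the gene.
Ifit1: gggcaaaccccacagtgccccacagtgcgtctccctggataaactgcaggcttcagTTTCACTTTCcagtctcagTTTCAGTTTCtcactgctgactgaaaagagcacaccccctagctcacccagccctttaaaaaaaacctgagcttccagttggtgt
Ifit3: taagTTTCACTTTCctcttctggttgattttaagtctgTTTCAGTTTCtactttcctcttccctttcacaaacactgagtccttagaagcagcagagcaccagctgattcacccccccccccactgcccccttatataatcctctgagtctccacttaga
Isg15: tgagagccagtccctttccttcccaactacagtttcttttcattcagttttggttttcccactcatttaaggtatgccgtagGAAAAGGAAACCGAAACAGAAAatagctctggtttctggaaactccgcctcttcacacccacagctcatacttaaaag
Igtp: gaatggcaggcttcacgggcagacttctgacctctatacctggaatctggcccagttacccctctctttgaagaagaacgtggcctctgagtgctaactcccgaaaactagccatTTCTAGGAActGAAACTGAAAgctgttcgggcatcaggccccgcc
Gbp2: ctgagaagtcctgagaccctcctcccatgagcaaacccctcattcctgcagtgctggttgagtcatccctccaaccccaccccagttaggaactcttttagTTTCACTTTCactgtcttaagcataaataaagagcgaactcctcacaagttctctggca
Gbp3: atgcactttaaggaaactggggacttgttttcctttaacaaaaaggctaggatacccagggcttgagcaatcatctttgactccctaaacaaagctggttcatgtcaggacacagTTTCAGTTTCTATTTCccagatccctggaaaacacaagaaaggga
Irgm1: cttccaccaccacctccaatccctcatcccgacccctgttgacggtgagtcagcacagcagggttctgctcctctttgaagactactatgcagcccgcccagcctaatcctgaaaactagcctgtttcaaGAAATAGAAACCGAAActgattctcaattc
B2m: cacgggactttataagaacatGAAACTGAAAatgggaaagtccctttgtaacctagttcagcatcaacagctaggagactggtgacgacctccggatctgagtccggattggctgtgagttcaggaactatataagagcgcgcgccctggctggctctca
A match is a description of the letters, not a sign that a factor binds there.

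Probe positions are on build mm9, per the file headers. The Ifit probes lie together on chromosome 19, Ifit2 at 34650244 to 34650303, Ifit3 at 34663105 to 34663164 and Ifit1 at 34723827 to 34723886. Mx1 was read at 97668644 to 97668703 and Mx2 at 97782327 to 97782386, both on chromosome 16. Isg15 was read on chromosome 4 at 155573649 to 155573708, Oasl1 on chromosome 5 at 115387861 to 115387920 and Zbp1 on chromosome 2 at 173039307 to 173039366. Gbp6 was read on chromosome 5 at 105700081 to 105700140, Igtp on chromosome 11 at 58020927 to 58020986 and Psmb10 on chromosome 8 at 108459677 to 108459736. Exons at these positions were not looked up.

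The rest of the pathway was read from 6 lists of 140 genes, of which 128 were tested. Of these, 24 were higher and 20 lower, 34.4% in all against 42.2% of all genes tested, with a median log2 fold change of -0.06. The counts moved to 40 higher and 24 lower without Mutant_175, to 15 and 12 without Wild Type_181, and to 16 and 13 without Wild Type_189. Over all genes they moved the same way, from 3734 higher and 5901 lower to 4514 and 6737 without Mutant_175. They were 2695 and 4476 without Wild Type_181, and 2634 and 4157 without Wild Type_189.

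Among interferons and their receptors 2 of 12 genes were higher and 3 lower. These were 16.7% and 25%, against 16.4% and 25.8% of all genes. Il10rb, a receptor chain shared by the lambda interferons and interleukin 10, was 4920, 5250 and 4900 in wild type and 1890, 1470, 1290 and 1610 in knockout (log2 fold change -1.70, SE 0.15, adjusted p 0.00017 by limma). Ifngr2, the second chain of the interferon gamma receptor, was 2730, 2610 and 2720 in wild type and 1210, 1070, 1280 and 1480 in knockout (-1.10, SE 0.13, adjusted p 0.00071). Il10rb and Ifngr2 were lower in every knockout array, Mutant_175 no more than the rest. Ifngr1, the other chain of the interferon gamma receptor, was called higher (0.42, SE 0.13, adjusted p 0.04 by limma), opposite in sign to Ifngr2. It is named beyond the naming rule, as the partner of Ifngr2. Il18, a cytokine that induces interferon gamma, was higher (1.12), and Ifnl3, a lambda interferon, was lower (-0.48). The probes of Ifnb1 and Ifng were well above background on 0 of 7 arrays. Those of Ifna1, Ifna2 and Ifna5 were well above background on every array, and none of these genes was called.

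Signalling genes had 4 of 19 higher and 3 lower, or 8 and 4 without Mutant_175. With all arrays these were 21.1% and 15.8%, against 16.4% and 25.8% of all genes. Without Mutant_175 the all-gene counts also rose, from 3734 higher and 5901 lower to 4514 and 6737. Stat3 (log2 fold change 0.97) and Jak2 (0.83), a transcription factor and a kinase of cytokine signalling, were higher, and the kinase Tyk2 (-0.59) and the phosphatase Ptpn6 (-0.91) were lower.

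Genes that sense nucleic acids or relay that signal had 8 called higher and 1 lower among 20 tested, and their median was 0.29. The shares were 40% and 5%, against 16.4% and 25.8% of all genes. Tlr3, the endosomal receptor for double-stranded RNA, was 15.9, 13.9 and 13.6 in wild type and 40.3, 49.9, 66.5 and 49.7 in knockout (log2 fold change 1.81, SE 0.18, adjusted p 0.00028 by limma). Its adaptor Ticam1 (0.84), the Toll-like receptor adaptor Myd88 (1.29) and the ubiquitin ligase Traf3 (0.70) were also higher. Groups did not overlap in these 4 genes, which were named for the smallest p of their list. Knockout arrays lay wholly above wild type arrays in 9 of the 20 genes and wholly below in 1. Over all genes tested the shares were 19.6% and 31.7%.

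Further type I-like targets had 10 called higher and 5 lower among 38 tested (median 0.30), and 20 higher and 6 lower without Mutant_175. With all arrays the shares were 26.3% and 13.2%, against 16.4% and 25.8% of all genes. Without Mutant_175 the all-gene counts also rose, from 3734 higher and 5901 lower to 4514 and 6737. Cxcl10, a chemokine that attracts T cells, had 12.9, 5.39 and 5.47 in wild type and 38, 110, 82.6 and 80 in knockout (log2 fold change 3.32, SE 0.44, adjusted p 0.00099 by limma). Tor3a (1.33), Oas1c (1.42) and Slfn2 (1.61) were higher, with every knockout array above the wild type. Of the 38 genes, knockout arrays lay wholly above wild type arrays in 9 and wholly below in 8. Over all genes tested the shares were 19.6% and 31.7%. The list of further GBP and IRG genes, which also held Ido1 and Cxcl9, had 0 called higher and 3 lower among 14 tested. The 3 were 21.4%, against 25.8% of all genes called lower. In this list 14 values were negative and the median was -0.59. With spike-in scaling 0 were called in either direction, 7 values were positive and the median was -0.02. Without Mutant_175, 5 were lower. The 3 called lower with all arrays were the tryptophan-degrading enzyme Ido1 (-1.08), Gbp9 (-1.22) and F830016B08Rik (-0.62). Ido1 and Cxcl9 are neither GBPs nor IRGs. Some other IRG genes were counted with the further type I-like targets, with both signs, so these counts describe the list only. Further antigen presentation genes had 0 called higher and 5 lower among 25 tested, and the median was -0.21. The 5 were 20%, against 25.8% of all genes called lower. Under spike-in scaling 4 were called higher and 2 lower, 18 values were positive and the median was 0.36. By that scaling 8600 of all 22837 genes were called higher and 1697 lower. Cd1d1, which presents lipids, was lower (-2.10), as were Psme1 (-1.66), an activator subunit of the immunoproteasome, and the chaperone Canx (-0.97). H2-Q1 was also called lower, but only 1 of 4 knockout arrays measured its probe well above background, and it passed the filter through the wild type arrays, so the size of its change is uncertain.

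Markers of macrophages and leukocytes moved with the type I-like genes over the knockout arrays. Medians of the other immune cell markers given below were also lowest in Mutant_175 among the knockout arrays, but the summed T cell signal was highest there. The median deviation of 10 macrophage and monocyte markers from their wild type mean was 0.05 in Mutant_175, 1.47 in Mutant_182, 1.54 in Mutant_187 and 1.36 in Mutant_188. Of these 10 markers 5 were higher and 0 lower, and 1 of the 5 was well above background on only 1 wild type array. Their summed scaled signal ran from 13900 to 14900 in wild type and from 13600 to 24400 in knockout. The 4 general leukocyte markers had medians of 0.58, 2.13, 2.30 and 1.59 over the same arrays, with 3 higher and 1 lower, and sums of 515 to 666 in wild type and 672 to 2010 in knockout.

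Lymphocyte markers had median deviations, in the order of the knockout arrays, of 0.32, 0.80, 0.67 and 0.65 for T cells. They were -0.21, 0.66, 0.96 and 1.10 for natural killer cells and -0.59, 1.17, 0.41 and 0.54 for B cells. Of 5 tested T cell markers 2 were higher, with sums of 669 to 900 in wild type and 912 to 1370 in knockout. The highest sum, 1370, was that of Mutant_175, where Cd3e was 557 against 210 to 244 in the other knockout arrays. Cd8a was well above background on 0 arrays. Among natural killer cell markers 0 of 3 tested were called, with sums of 66.5 to 81 in wild type and 69.6 to 114 in knockout, and the defining Ncr1, Klrb1c and Eomes were well above background on 0 arrays. B cell markers had 0 of 2 called, and sums of 24.7 to 28.8 in wild type and 22.4 to 73.4 in knockout, with Cd79a well above background on 0 arrays. Dendritic cell markers had 2 higher, Itgax (3.69) and Flt3 (1.33), and 1 lower of 5. Their sums, 16300 to 18900 in wild type and 8880 to 13300 in knockout, were nearly all from Siglech, the lower one, at 16200 to 18800 and 8780 to 13200. Whether the Siglech probe reads Siglech alone was not tested. The median deviation over these 5 markers was -0.23, 0.53, 1.51 and 0.26 in the knockout arrays. Neutrophil markers had 0 higher and 2 lower of 5, and endothelial markers 1 higher and 2 lower of 8. The neutrophil medians were -0.26, 1.52, 0.45 and 0.39 in the knockout arrays, and 1.07, -0.81 and -0.22 in wild type. The part of these cells in the interferon-stimulated genes was not tested.

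**Figure D4:**
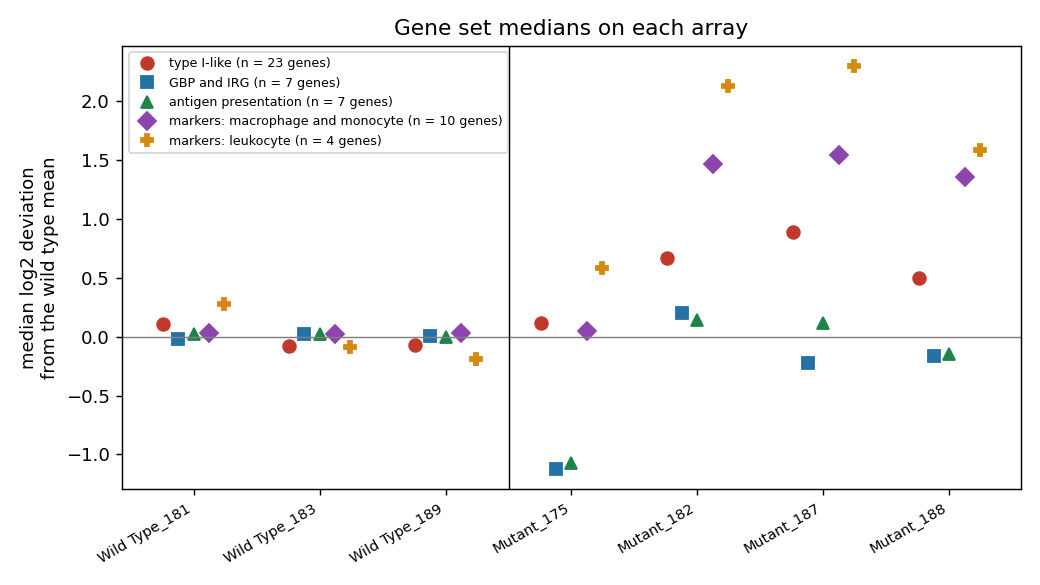
Median log2 deviation from the wild type mean on each array for the 3 classes of genes and for macrophage and leukocyte markers, with the number of genes in the legend. The 3 arrays with high macrophage medians (1.36 to 1.54) are those with the higher type I-like medians (0.50 to 0.89), and Mutant_175 is low in both. Other immune cell markers, not drawn, also had their lowest knockout median in Mutant_175, but the summed T cell signal was highest there.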

How the data were processed

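Total RNA of 7 heart samples was labelled with Cy3 and hybridised to one-colour SurePrint arrays, per the labels' protocols. Per the file headers, the deposited spot intensity was extracted by the authors with Feature Extraction 10.7.3.1, and the processed signal is corrected for background on a linear scale. Flags and probe annotation come from the same files. The authors' deposited value table held the same intensity (99.6% of cells within 0.01 on the log2 scale) and served as an alternative.

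Outlier spots, 82 to 146 of 59305 per array, were left out, 0 spots were saturated, and spots of 1 probe were averaged. The log2 intensity minus each array's 75th percentile was used, which removes any difference in total messenger RNA, and scaling to 7 spike-in probes was an alternative. The 75th percentile was 629.6 to 713 in wild type and 837.5 to 1147 in knockout. A probe had to be well above background on at least 3 arrays. Each gene had 1 probe, that with the highest mean, named as in the files. Both groups entered 1 fit with lmFit and eBayes of limma 3.58.1 in R 4.3.3 with data.table (version 1.17.8), without covariates, on 22837 genes. The method was tested on simulated data. No replicate numbers are shared between groups and all arrays lie on 1 slide, so no block was fitted. Figures used matplotlib 3.10.9.

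The members and the pathway and marker lists were chosen with earlier results of these data known. All members could be named. From each pathway list up to 4 called genes with the smallest p were named, with Psmb5, Psmb6, Psmb7, Smarca4 and Smarca2, and exceptions are stated. One gene of the lists is not reported here. Alternatives were other scalings, normexp, the value table, other filters on dim probes, the mean over probes, names from accessions (0 member probes renamed), other variance models, and leaving out arrays.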

Additional observations from a re-analysis of the deposited data

Results flagged for a closer look

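Among the 4 knockout arrays, 37 genes and 2 class medians were searched for a single array far from the rest by Dixon's ratio of gap to range, at the critical value for 4 samples. Such a test marks about 1 in 20 sets by chance. Of the 39 sets searched, 2 passed. In Bst2, which tethers budding virus, Mutant_175 (324) was lowest with a ratio of 0.862, against 577 to 633 in the other knockout arrays. In Igtp, a regulatory GTPase, Mutant_175 (674) was lowest with a ratio of 0.846, against 1960 to 2370 in the others. Without Mutant_175 the log2 fold changes were 0.90 for Bst2 and 1.69 for Igtp, both called by limma (adjusted p 0.0082 and 0.00021). Both genes were picked for their low value in that array, so these calls are not read as support.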

How the results depend on the processing

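No paired analysis was possible because Wild Type and Mutant samples share no replicate number. The 9 members called higher became 19 with spike-in scaling, 17 with array weights, 16 without Mutant_175 and Mutant_187, and 3 to 17 when single arrays were left out. The members called lower, 3, stayed between 2 and 4 in all alternatives. The type I-like median of 0.50 was 1.07 and the GBP, IRG and antigen presentation median of -0.30 was 0.27 with spike-in scaling, where the median of all genes was 0.45. Calls over all genes were 38.8% higher, 45% with quantile normalization, 49.4% with the percentile taken over clearly detected probes, and 83.5% with spike-in scaling. Other pathway genes called higher, 24, became 51 with spike-in scaling, 37 with array weights and 15 to 40 without single arrays. Those called lower, 20, became 5 with spike-in scaling and 12 to 24 without single arrays. Over all genes, leaving out single arrays gave 2634 to 4514 higher and 4074 to 6737 lower.

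Calls of Ifit1 (0.69 to 1.36), Ifit2 (0.90 to 1.58), Gbp6 (-1.66 to -1) and Iigp1 (-2.19 to -1.26) held in all alternatives run. Mx1, at background in wild type, was 1.19 to 4.86 and could not be fitted where a probe had to be well above background on all arrays. Of the other calls, Oasl1 was lost in 2 of 20 alternatives, Ifit3 in 4, Mx2 in 5, Isg15, Zbp1 and Igtp in 7 each, and Psmb10 in 10, with its sign turned and its call lost in 1 more.

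Signs turned in genes with main log2 fold changes from -0.49 (Psmb10) to 0.14 (Oas1a), of which Psmb10 alone was called in the main analysis. With spike-in scaling the log2 fold changes were B2m 0.41, Gbp2 0.19, Gbp3 0.53, H2-D1 0.09, H2-K1 0.33, Ifi35 0.21, Irf1 0.20, Irgm1 0.50, Oas2 0.32, Psmb10 0.08, Psmb8 0.54, Psmb9 0.20, Tap1 0.55 and Xaf1 0.47. With quantile normalization B2m was 0.05, Gbp3 0, Irgm1 0.02 and Psmb8 0.07. With normexp and quantile normalization Gbp3 and Irgm1 were 0.03 and Psmb8 0.04. With the percentile taken over clearly detected probes Gbp3 was 0.07, Irgm1 0.05, Psmb8 and Tap1 0.09 and Xaf1 0.01. With array weights Gbp3 and Psmb8 were 0.15, Irgm1 0.05 and Tap1 0.11, and with the mean over probes Tap1 was 0.15. Without Mutant_175 and Mutant_187 B2m was 0.02, Gbp2 0.01, Gbp3 0.21, Irgm1 0.16, Psmb8 0.23 and Tap1 0.19. Leaving out single arrays gave Gbp3 -0.23 to 0.31, H2-K1 -0.37 to 0.03, Irgm1 -0.20 to 0.01, Oas1a -0.11 to 0.54, Oas2 -0.38 to 0.02, Psmb8 -0.23 to 0.35, Tap1 -0.17 to 0.22 and Xaf1 -0.17 to 0.03. The cause was not tested. Signals near background, as in Mx1, limit the size of a fold change.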

Other observations

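Several class I heavy chain genes, chosen after their values were seen, varied within the groups in the same way. H2-Q7 had scaled signals of 913, 998 and 347 in wild type and 218, 390, 931 and 308 in knockout. H2-M2 had 369, 381 and 125 in wild type and 115, 152, 402 and 126 in knockout. H2-T24 had 53.8, 56.5 and 31.8 in wild type and 18.9, 15.8, 38.2 and 19.4 in knockout. These genes were high in Wild Type_181, Wild Type_183 and Mutant_187, as was H2-D1, and H2-K1 did not share this split. Genes of this family are near copies of each other, and the part of cross-hybridisation in the pattern was not tested.

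Cxcl9, Cxcl10 and Cxcl11 encode ligands of the same chemokine receptor, and Cxcl9 and Cxcl11 were also chosen after their values were seen. Cxcl9 had 58.8, 44 and 52.1 in wild type and 0.764, 45.8, 29.2 and 26.3 in knockout, with overlapping groups, and was not called (adjusted p 0.26 by limma). The value in Mutant_175 was not well above background. Cxcl11 had 32200, 36300 and 37200 in wild type and 26000, 24900, 23100 and 23800 in knockout, and was called lower (log2 fold change -0.53, adjusted p 0.0073). Its probe was the brighter of 2, and whether so bright a probe reads Cxcl11 alone was not tested. Cxcl10 was higher in all 4 knockout arrays.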
